A study of Mus musculus with 12 samples.

Results

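The heat shock proteins and DnaJ proteins are molecular chaperones and their co-chaperones. The members described here were the protein-coding genes whose symbol begins with Hsp, then at most 1 family letter and a number, or with Dnaj, together with the heat shock factors Hsf1 and Hsf2. Hspa5 and Hsp90b1, which encode the main chaperones of the endoplasmic reticulum, were left out by that rule. It found 68 genes among the 20884 genes present in all 3 comparison tables, namely 13 of the Hsp70 and Hsp110 families, 2 of the Hsp90 family, 2 chaperonin genes, 6 small heat shock proteins, 2 heat shock factors, 42 DnaJ genes in classes A (4), B (12) and C (26), and Hspg2. Hspg2 encodes perlecan, a proteoglycan of the extracellular matrix that shares only the symbol and is no chaperone.

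The data were RNA-seq comparisons of wild-type macrophages grown from the bone marrow of male C57BL/6 mice aged 8 to 16 weeks, cultured for 7 days with 10% serum and with the growth factor M-CSF at 10 ng/mL, which stayed in the medium throughout. There were 12 libraries, 3 from cells exposed for 4 h to monophosphoryl lipid A (MPLA), 3 from cells exposed for 24 h, 3 from cells harvested 3 d after MPLA priming had ended, and 3 from controls without MPLA. MPLA is a lipid A derivative of low toxicity that acts on Toll-like receptor 4. The labels give neither the length of priming in the 3 d group nor the time at which the controls were harvested, and they do not say whether replicate libraries were from separate mice or cultures, so that the p-values stand for the spread between libraries alone, part or all of which could be technical.

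Chaperones of the Hsp70 family bind unfolded stretches of other proteins in a cycle driven by ATP. DnaJ proteins, also called Hsp40, bring substrates to Hsp70 and start its ATP hydrolysis, nucleotide exchange factors such as the Hsp110 proteins reopen it, and Hsp90 and the chaperonins take over substrates at later stages of folding. Many of these genes are switched on in stressed cells by heat shock factor 1, which binds heat shock elements made of inverted repeats of the unit GAA in their promoters. In macrophages chaperones also serve protein synthesis and secretion after activation, and extracellular Hsp70 and Hsp60 have been studied as inflammatory signals.

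Each MPLA group was set against the same 3 controls in a table of its own, which gives no values of single libraries, so the spread behind each value is given here through the authors' own tests. Changes are log2 MPLA over control from the DESeq2 columns, and a gene was called higher or lower at an adjusted p under 0.05. The standard error (SE) printed with a change is the one its p-value implies for a test of the change over its SE, and none can be had where the authors' deposited table lists p as 0. Depth per library is unknown. The median difference between the edgeR changes and the unscaled ratios would put the MPLA libraries at 0.859, 0.934 and 2.32 times the depth of the controls at 4 h, 24 h and 3 d. These values rest on the edgeR columns alone. The DESeq2 columns, which are scaled otherwise, were not used for them. The median log2 change over all genes with an adjusted p was -0.04, -0.05 and -0.02 with DESeq2 and -0.97, -0.46 and -0.15 with edgeR in the authors' deposited tables, so that values lie lower with edgeR by nearly 1 log2 unit at 4 h, and small increases with DESeq2 can be decreases with edgeR. Bulk RNA cannot tell fewer cells of a type from less RNA per cell. Because the 3 comparisons share their controls and each table was normalized on its own, values at different times stand side by side without a test of their difference.

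At 4 h, 30 of the 65 members with an adjusted p were higher after MPLA and 12 were lower in the authors' deposited table. Over all 17523 genes tested with DESeq2, 31.8% rose and 31.0% fell, so that 30 of 65 lies above that background and 12 of 65 below it. The median change of the members was 0.20, against -0.04 over all genes tested. A change of at least 2-fold was found in 14 higher and 6 lower members, while 18.1% and 18.5% of all genes tested passed that size. With edgeR 14 of all 68 members were higher and 43 lower in the authors' deposited table, against 13.5% and 50.1% of all 21893 genes. With that tool the member shares thus lay above the background in both directions. Of the 30 members called higher with DESeq2, 14 were higher with edgeR too, 14 were called lower by it and 2 were not called, while all 12 lower members were lower with both tools. The member median with edgeR was -0.74, above the -0.97 of all genes.

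At 24 h, 36 of 62 members with an adjusted p were higher after MPLA and 12 lower in the authors' deposited table. Among all 16442 genes tested with DESeq2, 32.4% were higher and 32.2% lower. The member median was 0.44, against -0.05 over all genes tested. At least a 2-fold change was seen in 16 higher and 5 lower members, beside 12.8% and 16.4% of all genes. By edgeR 25 of all 68 members were higher and 26 lower in the authors' deposited table, against 16.2% and 41.8% of all 21923 genes, and all 25 were among the 36. The member median with edgeR was 0.04, while that of all genes was -0.46.

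In cells harvested 3 d after priming, 30 of 62 members with an adjusted p were higher and 14 lower in the authors' deposited table, against 29.5% and 25.8% of all 15111 genes tested with DESeq2. The changes were small. The members ranged from -1.04 to 1.10 with a median of 0.13, beside -0.02 over all genes tested, and 1 member in each direction passed 2-fold, against 6.38% and 5.20% of all genes. With edgeR 26 of all 68 members were higher and 22 lower in the authors' deposited table, against 15.5% and 27.7% of all 23248 genes. Both member shares lay above the background there too. The plot of cumulative shares places the members to the right of all genes over the middle of each distribution.

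**Figure D1:**
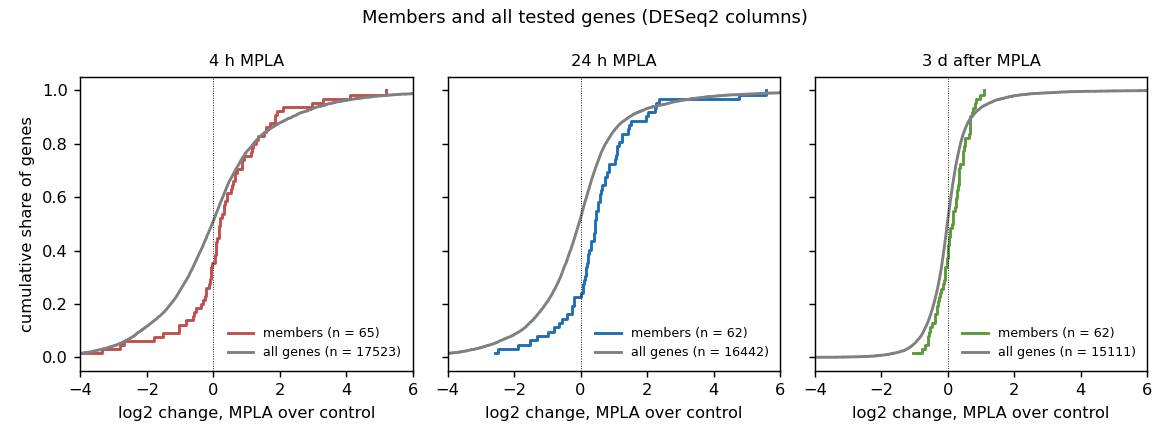
Cumulative share of genes (vertical axis) at or below each log2 change, MPLA over control, DESeq2 columns (horizontal axis, shown from -4 to 6), for the members (coloured) and for all genes with an adjusted p (grey), with 1 panel for each of 4 h, 24 h and 3 d. The member medians were 0.20, 0.44 and 0.13, against -0.04, -0.05 and -0.02 over all genes.

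**Figure D2:**
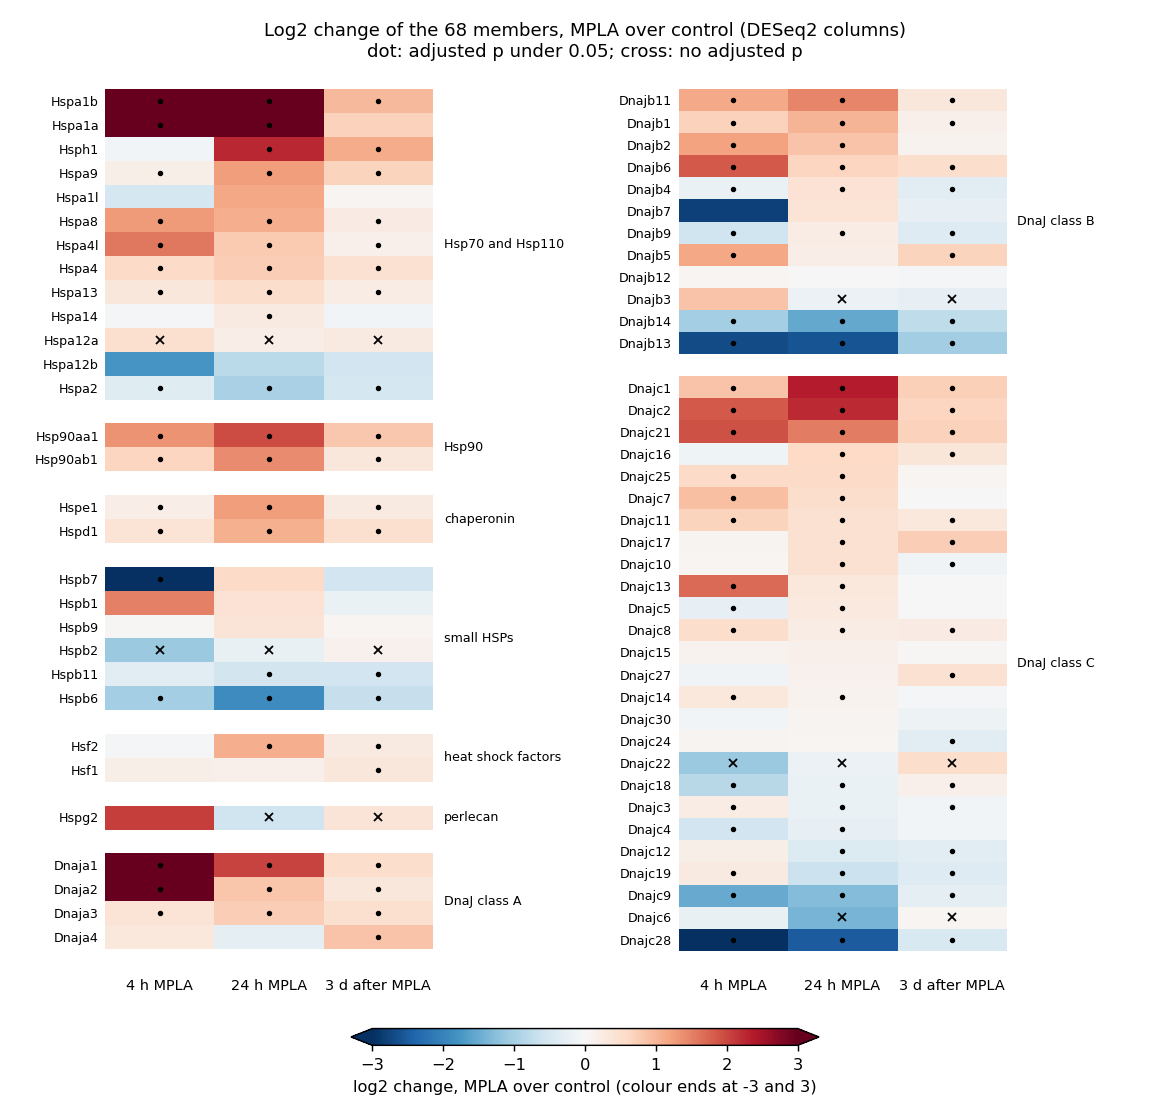
Log2 change, MPLA over control, of the 68 members at 4 h, 24 h and 3 d, grouped by role and ordered within a role by the change at 24 h. Colour gives the DESeq2 change, dots mark an adjusted p under 0.05 and crosses mark members without an adjusted p. Hspa1b, Hspa1a, Dnaja2 and Dnaja1 are the deepest red at 4 h and Hspa1b and Hspa1a at 24 h, Dnajc28 (-5.61) and Hspb7, listed at 0 after MPLA, are the deepest blue at 4 h, and the 3 d columns are pale.

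The inducible cytosolic Hsp70 genes had the largest increases of all members at 4 h and 24 h. Hspa1b (ENSMUSG00000090877, chromosome 17, 34956436 to 34959238 in GRCm38) was 36.8-fold higher after 4 h of MPLA than in controls in the authors' deposited table, a log2 change of 5.20 (SE 0.27, DESeq2 adjusted p = 1.56e-81). After 24 h it was 47.9-fold higher, a log2 change of 5.58 (SE 0.24, DESeq2 adjusted p = 2.1e-114) in the authors' deposited table. At 3 d the log2 change of Hspa1b was 0.96 (SE 0.32, DESeq2 adjusted p = 0.00566). Its neighbour Hspa1a (ENSMUSG00000091971, chromosome 17, 34969190 to 34972156) was 17.2-fold higher at 4 h and 27.1-fold higher at 24 h, with log2 changes of 4.10 (SE 0.26) and 4.76 (SE 0.23) in the authors' deposited tables. At 3 d Hspa1a had a change of 0.68 (SE 0.31) that missed the threshold with DESeq2, adjusted p = 0.0513, and passed it with edgeR. These genes share most of their sequence. In the GENCODE annotation 62.3% of the 50-base windows of Hspa1b transcripts also occur in Hspa1a, and 60.3% of those of Hspa1a occur in another gene, 58.8% in Hspa1b itself, so reads could be split between them and their separate values are uncertain. Their promoters were almost the same as well. The 250 bases before the RefSeq start sites (GRCm38.p6, minus strand, chr17:34972157-34972406 for Hspa1a and chr17:34959239-34959488 for Hspa1b) were identical at 247 positions, 98.8%, and differed at 3. Both are shown 5′ to 3′, because they belong to the most changed members, with capitals marking the match to the heat shock element, a pair of inverted GAA units, at -104 to -97 from the start site.
Hspa1a: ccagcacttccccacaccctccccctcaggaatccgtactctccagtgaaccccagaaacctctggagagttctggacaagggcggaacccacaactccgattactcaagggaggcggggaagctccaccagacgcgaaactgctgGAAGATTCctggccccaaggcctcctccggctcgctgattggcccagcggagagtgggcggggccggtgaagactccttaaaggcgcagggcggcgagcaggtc
Hspa1b: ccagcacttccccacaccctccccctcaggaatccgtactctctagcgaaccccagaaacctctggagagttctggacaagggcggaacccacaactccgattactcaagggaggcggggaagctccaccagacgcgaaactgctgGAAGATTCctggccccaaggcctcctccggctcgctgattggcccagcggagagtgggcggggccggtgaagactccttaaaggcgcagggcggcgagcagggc

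The other Hsp70 genes changed less. Hspa8, the constitutive cytosolic Hsp70, was higher by 1.28 at 4 h, 1.09 at 24 h and 0.24 at 3 d (log2) in the authors' deposited tables, and higher with edgeR at each of these times. It shares 38.6% of its windows with other genes, mainly Gm15459, so its counts are uncertain too. Hspa9, the mitochondrial Hsp70 also called mortalin, was called higher by 0.18 at 4 h with DESeq2 but was at -0.76 with edgeR, and its change was 1.26 at 24 h and 0.66 at 3 d in the authors' deposited tables. Hspa4 and Hspa4l belong to the Hsp110 exchange factors. Hspa4l was higher by 1.58 (SE 0.06), 0.79 (SE 0.06) and 0.15 (SE 0.05) at 4 h, 24 h and 3 d in the authors' deposited tables, where edgeR had 0.02 at 3 d and did not call it. Hspa4 was higher by 0.56 (-0.37 with edgeR), 0.74 and 0.45 in the authors' deposited tables. Hspa13, a microsomal Hsp70, was higher by 0.34 at 4 h (-0.59 with edgeR), 0.52 at 24 h and 0.23 at 3 d in the authors' deposited tables, and its 3 d call was lost with edgeR (0.09).

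Hsph1, which encodes the stress-inducible Hsp110 (ENSMUSG00000029657, chromosome 5, 149614287 to 149636376), was not called at 4 h with DESeq2, with a log2 change of -0.08 (SE 0.10, adjusted p = 0.522), and was called lower by edgeR, with -1.01 in the authors' deposited table. At 24 h it was 4.78-fold higher, a log2 change of 2.26 with the DESeq2 p listed as 0 in the authors' deposited table. With DESeq2 it was also the only member higher by at least 2-fold at 3 d, with a change of 1.10 (SE 0.06, DESeq2 adjusted p = 2.49e-73). Whether its change differed between 4 h and 24 h was not tested. Its upstream sequence (GRCm38.p6, minus strand, chr5:149636316-149636565) is shown because no 4 h call with DESeq2 sets Hsph1 beside the early Hspa1a and Hspa1b, with capitals on the pair of inverted units at -54 to -47.
Hsph1: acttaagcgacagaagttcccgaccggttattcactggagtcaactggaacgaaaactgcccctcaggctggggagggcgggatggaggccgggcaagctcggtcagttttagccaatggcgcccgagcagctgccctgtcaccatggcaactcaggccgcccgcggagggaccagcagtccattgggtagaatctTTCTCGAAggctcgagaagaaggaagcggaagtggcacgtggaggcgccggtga

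Over the Hsp70 and Hsp110 genes as a group, the authors' deposited table for 4 h had 7 higher and 1 lower of 12 tested with DESeq2, against 4 higher and 8 lower with edgeR. At 24 h the counts were 9 and 1 with DESeq2 and 8 and 3 with edgeR, and at 3 d 7 and 1 with DESeq2 and 6 and 2 with edgeR. The edgeR counts cover all 13 genes of the group. Over all genes DESeq2 called 31.8%, 32.4% and 29.5% higher and 31.0%, 32.2% and 25.8% lower at 4 h, 24 h and 3 d. With edgeR those shares were 13.5%, 16.2% and 15.5% higher and 50.1%, 41.8% and 27.7% lower. The group's medians were 0.26, 0.94 and 0.23 with DESeq2, beside -0.04, -0.05 and -0.02 over all genes tested. The lower gene at each time was Hspa2, an Hsp70 known best from the testis, with changes of -0.36 (SE 0.15), -0.97 (SE 0.15) and -0.53 (SE 0.11) at 4 h, 24 h and 3 d in the authors' deposited tables. Hspa14, which works at the ribosome, was called with DESeq2 at 24 h alone, with a change of 0.27, while edgeR called it lower at 4 h, 24 h and 3 d, with -0.97, -0.15 and -0.22 in the authors' deposited tables. Hspa1l and Hspa12b were called at no time with DESeq2, and Hspa12a had no adjusted p in any of the authors' deposited tables. Of the exonic bases of Hspa1l, 71.9% lie in exons of genes on the other strand, so its value is uncertain unless strand was used in counting.

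Both cytosolic Hsp90 genes were called higher at every time with DESeq2. Hsp90aa1, the stress-inducible form (ENSMUSG00000021270, chromosome 12, 110690605 to 110702728), was 2.56-fold higher at 4 h, 3.9-fold at 24 h and 1.75-fold at 3 d in the authors' deposited tables, with log2 changes of 1.36 (SE 0.04), 1.96 and 0.81 (SE 0.04). Hsp90ab1, the constitutive form, was higher by 0.65 (SE 0.03) at 4 h with DESeq2 but stood at -0.29 with edgeR, and was higher by 1.42 at 24 h and 0.33 (SE 0.03) at 3 d with both tools in the authors' deposited tables. Hsp90aa1 shares 47.5% of its windows with other genes, chiefly Gm12346, and its value is uncertain to that extent.

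The mitochondrial chaperonin genes Hspd1, encoding Hsp60, and Hspe1, encoding its lid Hsp10, lie head to head on chromosome 1. Hspd1 had log2 changes of 0.41 (SE 0.05), 1.07 (SE 0.04) and 0.49 (SE 0.05) at 4 h, 24 h and 3 d in the authors' deposited tables. Hspe1 had 0.20 (SE 0.08), 1.24 (SE 0.06) and 0.27 (SE 0.06) in the same columns of the authors' deposited tables. Both were called higher at each time with DESeq2. At 4 h both turned with edgeR, to -0.53 for Hspd1 and -0.74 for Hspe1. Hspd1 shares 39.7% of its windows with other genes, mostly the pseudogene Hspd1-ps3, and Hspe1 shares 18.4%. Their common promoter region is shown as the 250 bases before the start of Hspe1 (GRCm38.p6, plus strand, chr1:55087898-55088147), because it carries a run of heat shock units with at least 3 in a row, read on both strands. Capitals mark the run from -89 to -72.
Hspe1: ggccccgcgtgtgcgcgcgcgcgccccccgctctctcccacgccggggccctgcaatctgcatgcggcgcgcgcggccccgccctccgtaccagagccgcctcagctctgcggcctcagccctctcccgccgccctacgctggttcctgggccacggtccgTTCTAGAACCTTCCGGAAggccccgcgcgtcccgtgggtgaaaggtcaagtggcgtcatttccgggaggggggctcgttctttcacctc

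Small heat shock proteins hold unfolded proteins in solution without ATP. None of the 5 tested was called higher at any time with DESeq2 in the authors' deposited tables, and 2 were lower at each, against 3, 2 and 2 lower and 0 higher with edgeR. The edgeR counts cover 6 genes. Over all genes DESeq2 called 31.8%, 32.4% and 29.5% higher and 31.0%, 32.2% and 25.8% lower at 4 h, 24 h and 3 d. With edgeR those shares were 13.5%, 16.2% and 15.5% higher and 50.1%, 41.8% and 27.7% lower. Hspb6 had called log2 changes of -1.02 (SE 0.24), -1.88 (SE 0.23) and -0.69 (SE 0.14) at 4 h, 24 h and 3 d in the authors' deposited tables. Hspb11, a small protein of cilia transport despite its name, was called lower at 24 h with -0.54 and at 3 d with -0.59 with DESeq2 in the authors' deposited tables, and edgeR called it lower at 4 h too (-1.25). Hspb7, known from heart and muscle, was listed at 0 after 4 h of MPLA, where the authors' deposited table gives a DESeq2 adjusted p of 0.0413. With all p-values adjusted together that p was 0.0516, and neither DESeq2 nor edgeR called Hspb7 at 24 h or 3 d. Hspb1, the heat-inducible Hsp27, was not called at any time with DESeq2, and its changes of 1.52, 0.43 and -0.20 had SEs of 0.78, 0.81 and 0.48 in the authors' deposited tables. Those errors leave changes of a few fold undetectable for Hspb1, and 48.8% of its windows occur in other genes.

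Hsf1, the main stress-responsive factor, was not called at 4 h (0.18, SE 0.10) or 24 h (0.16, SE 0.09) with DESeq2 in the authors' deposited tables, and was called higher at 3 d with 0.34 (SE 0.07). With edgeR the values of Hsf1 were -0.76, -0.25 and 0.22, all called. Hsf2, which is more active in development, had -0.06 (SE 0.13, not called with DESeq2) at 4 h, was 2.14-fold higher at 24 h with 1.10 (SE 0.09, DESeq2 adjusted p = 1.26e-33) and stood at 0.27 (SE 0.08) at 3 d in the authors' deposited tables. The 3 d call of Hsf2 was lost with edgeR. These are transcript levels and say nothing of the activity of the factors, which is set mainly after translation. Hspg2 was not called at 4 h with DESeq2 or edgeR and had no DESeq2 adjusted p at 24 h or 3 d in the authors' deposited tables.

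DnaJ class A proteins are the general cytosolic and mitochondrial partners of Hsp70, and 3 of the 4 were called higher with DESeq2 at 4 h, 3 at 24 h and 4 at 3 d in the authors' deposited tables, against 2 higher and 1 lower at 4 h, 3 higher at 24 h and 4 higher at 3 d with edgeR. Over all genes DESeq2 called 31.8%, 32.4% and 29.5% higher and 31.0%, 32.2% and 25.8% lower at these times. With edgeR those shares were 13.5%, 16.2% and 15.5% higher and 50.1%, 41.8% and 27.7% lower. Dnaja2 was 9.89-fold higher at 4 h (log2 change 3.31, p listed as 0), 1.79-fold at 24 h (0.84, SE 0.04) and 1.27-fold at 3 d (0.34, SE 0.04) in the authors' deposited tables. Dnaja1 (ENSMUSG00000028410, chromosome 4, 40722150 to 40737149) was 7.9-fold higher at 4 h, 4.06-fold at 24 h and 1.43-fold at 3 d, with log2 changes of 2.98, 2.02 and 0.52 in the authors' deposited tables. Dnaja3, the mitochondrial member, was higher by 0.42 at 4 h, 0.74 at 24 h and 0.47 at 3 d with DESeq2, and stood at -0.52 at 4 h with edgeR. Dnaja4 was called at 3 d alone with DESeq2, at 0.86 (SE 0.38, DESeq2 adjusted p = 0.0412), and that call was lost when all p-values were adjusted. Its exons overlap Wdr61 on the other strand over 44.1% of their bases. Dnaja1 shares 11.9% of its windows with other genes. An upstream sequence of Dnaja1 (GRCm38.p6, plus strand, chr4:40722218-40722467) is shown as that of the most changed class A gene with a match, which lies at -124 to -117. It was picked because it holds the match, and the other RefSeq promoters of Dnaja1 hold none.
Dnaja1: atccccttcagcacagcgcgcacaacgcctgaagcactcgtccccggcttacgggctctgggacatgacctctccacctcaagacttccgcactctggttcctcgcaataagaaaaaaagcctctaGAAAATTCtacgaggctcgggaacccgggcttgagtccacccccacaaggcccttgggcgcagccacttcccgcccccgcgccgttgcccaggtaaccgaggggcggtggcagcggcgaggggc

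Class B had calls in both directions. At 4 h 5 of 12 tested were higher and 4 lower with DESeq2, against 4 and 7 with edgeR. At 24 h 6 of 11 were higher and 2 lower, and at 3 d 4 were higher and 4 lower, against 4 and 5 and then 3 and 5 with edgeR, in the authors' deposited tables. Over all genes DESeq2 called 31.8%, 32.4% and 29.5% higher and 31.0%, 32.2% and 25.8% lower at 4 h, 24 h and 3 d, and edgeR 13.5%, 16.2% and 15.5% higher and 50.1%, 41.8% and 27.7% lower. Dnajb6, which holds back protein aggregation (ENSMUSG00000029131, chromosome 5, 29735688 to 29818134), was 3.58-fold higher at 4 h, a log2 change of 1.84 (SE 0.05), and had 0.65 (SE 0.05) at 24 h and 0.52 (SE 0.05) at 3 d in the authors' deposited tables. Dnajb1, the Hsp40 of the heat shock response, was higher by 0.70 (SE 0.07) at 4 h, 1.03 (SE 0.06) at 24 h and 0.16 (SE 0.06) at 3 d with DESeq2, but at 4 h edgeR had it at -0.24, and the 3 d call was lost with edgeR. Dnajb11, a chaperone of the endoplasmic reticulum, was higher by 1.15, 1.46 and 0.33 at 4 h, 24 h and 3 d in the authors' deposited tables. Dnajb2 was higher by 1.20 at 4 h and 0.86 at 24 h, and Dnajb5 by 1.16 at 4 h and 0.66 at 3 d, in the authors' deposited tables. The promoter of Dnajb6 (GRCm38.p6, plus strand, chr5:29735648-29735897) is shown because it holds 3 heat shock units in a row, in capitals at -46 to -34. Dnajb6 shares 17.7% of its windows with other genes.
Dnajb6: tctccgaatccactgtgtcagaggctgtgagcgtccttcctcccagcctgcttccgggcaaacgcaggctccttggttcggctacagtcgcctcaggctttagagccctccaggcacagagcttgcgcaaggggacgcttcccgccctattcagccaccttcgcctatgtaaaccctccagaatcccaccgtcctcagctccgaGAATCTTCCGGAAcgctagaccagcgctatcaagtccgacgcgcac

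The lower class B genes were Dnajb13 and Dnajb14 at each time. Dnajb13, a protein of the ciliary axoneme, was 6.37-fold lower at 4 h, 5.99-fold at 24 h and 2.05-fold at 3 d in the authors' deposited tables, with log2 changes of -2.67 (SE 0.53), -2.58 (SE 0.43) and -1.04 (SE 0.24). It was the one member lower by at least 2-fold at 3 d, and 11.2% of its exonic bases lie opposite exons of Ucp2. Dnajb14, an anchored protein of the endoplasmic reticulum membrane, was lower, with -1.02 (SE 0.06), -1.53 (SE 0.05) and -0.76 (SE 0.04) in the authors' deposited tables, while Dnajb12, its closest relative, was not called at any time with DESeq2, with changes of 0.07, 0.00 and -0.03, and was called lower by edgeR at each, with -0.87, -0.41 and -0.15.

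Class C proteins share only the J domain, which contacts Hsp70, and serve particular places and processes. At 4 h 11 of 25 tested were higher and 5 lower with DESeq2, against 3 and 19 with edgeR. At 24 h the counts were 13 and 7 of 24 with DESeq2 and 5 and 15 with edgeR, and at 3 d 9 and 7 of 24 with DESeq2 and 8 and 13 with edgeR, so that higher calls outnumbered lower ones with DESeq2 and lower ones outnumbered higher ones with edgeR at each time. Beside these counts stand 31.8%, 32.4% and 29.5% of all genes higher and 31.0%, 32.2% and 25.8% lower with DESeq2, and 13.5%, 16.2% and 15.5% higher and 50.1%, 41.8% and 27.7% lower with edgeR. The class medians were 0.10, 0.19 and 0.01 with DESeq2, against -0.04, -0.05 and -0.02 over all genes tested. Dnajc2, which sits on the ribosome, was 3.59-fold higher at 4 h, 4.76-fold at 24 h and 1.55-fold at 3 d in the authors' deposited tables (log2 1.84, 2.25 and 0.63). Dnajc21, a factor of ribosome assembly, was 3.79-fold, 2.89-fold and 1.6-fold higher in the authors' deposited tables (log2 1.92, 1.53 and 0.68). Dnajc1, a protein of the endoplasmic reticulum membrane that binds ribosomes, was 1.81-fold higher at 4 h (0.86, against -0.08 with edgeR), 5.09-fold at 24 h (2.35) and 1.65-fold at 3 d (0.72) in the authors' deposited tables. Dnajc17, a DnaJ protein with an RNA-binding motif, had the highest change of the class at 3 d, 1.68-fold (log2 0.75, SE 0.12, DESeq2 adjusted p = 3.84e-10), after 0.09 (SE 0.19, not called with DESeq2) at 4 h and, in the authors' deposited tables, 0.45 (SE 0.15) at 24 h. The edgeR values of Dnajc17 were -0.84, 0.04 and 0.64, called lower at 4 h, not called at 24 h and called higher at 3 d, and 13.9% of its windows occur in other genes. Dnajc13, a coat regulator of endosomes, was 3.23-fold higher at 4 h (log2 1.69) and was at 0.32 at 24 h, which edgeR put at -0.09, and 0.01 at 3 d (not called with DESeq2, and called lower with -0.12 by edgeR) in the authors' deposited tables.

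The largest decrease of a called member was in this class. Dnajc28 (ENSMUSG00000039763, chromosome 16, 91614254 to 91619026) was 48.9-fold lower at 4 h, 5.61-fold lower at 24 h and 1.38-fold lower at 3 d in the authors' deposited tables, with log2 changes of -5.61 (SE 0.50, DESeq2 adjusted p = 5e-29), -2.49 (SE 0.18) and -0.46 (SE 0.10). Dnajc9, a histone chaperone of dividing cells, was 2.86-fold lower at 4 h (-1.52, SE 0.13), 2.47-fold lower at 24 h (-1.30, SE 0.10) and 1.2-fold lower at 3 d (-0.26, SE 0.07) in the authors' deposited tables. Dnajc4 was lower at 4 h with -0.58 (SE 0.14, DESeq2 adjusted p = 3.49e-05) and at 24 h with -0.25 (SE 0.12) and was not called at 3 d (-0.08, SE 0.09) with DESeq2, while edgeR called it lower each time with -1.52, -0.67 and -0.20. Of the 54 members with a promoter given, 41 had no match to the letters searched. Among these were Dnaja2, Dnajc21 and Dnajb1, higher at 24 h with both tools, and Dnajb14, which was lower. The upstream sequence of Dnajc28 (GRCm38.p6, minus strand, chr16:91619000-91619249) is shown as that of the most lowered member at 4 h. It holds no match either, so it has no capitals.
Dnajc28: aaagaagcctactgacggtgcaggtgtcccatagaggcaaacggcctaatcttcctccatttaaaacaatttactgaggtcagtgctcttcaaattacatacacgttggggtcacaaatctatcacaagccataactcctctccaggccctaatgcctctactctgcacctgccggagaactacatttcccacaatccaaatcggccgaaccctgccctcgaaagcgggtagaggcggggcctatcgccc

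Several members had DESeq2 calls of different sign in different tables. With edgeR none of them was called higher at any time, so their calls differed in sign with DESeq2 alone. Dnajb9, an endoplasmic reticulum co-chaperone of the unfolded protein response, was lower at 4 h (-0.61, SE 0.09) and 3 d (-0.40, SE 0.06) and higher at 24 h (0.21, SE 0.06) with DESeq2, where edgeR gave -0.20. Dnajb4 was lower at 4 h with -0.21 (SE 0.10) and at 3 d with -0.34 (SE 0.07), and higher at 24 h with 0.42 (SE 0.08) in the authors' deposited tables, and edgeR left 0.01 of the last and did not call it. The 4 h call of Dnajb4 was lost when all p-values were adjusted together (DESeq2 adjusted p = 0.0568). Dnajc10, a disulfide reductase of the endoplasmic reticulum, had 0.06 (SE 0.05) at 4 h, 0.45 (SE 0.04) at 24 h and -0.12 (SE 0.04) at 3 d in the authors' deposited tables, and with edgeR -0.88, 0.03 and -0.25. Dnajc3, an endoplasmic reticulum co-chaperone that restrains the kinase PERK, was higher by 0.22 at 4 h (-0.72 with edgeR) and lower at 24 h with -0.20 and at 3 d with -0.09 in the authors' deposited tables. That 3 d call was lost when all p-values were adjusted together (DESeq2 adjusted p = 0.0760). Dnajc19, a subunit of the mitochondrial import motor, had 0.26 at 4 h (-0.68 with edgeR), -0.65 at 24 h and -0.39 at 3 d in the authors' deposited tables. Dnajc5, the cysteine string protein of secretory vesicles, had -0.24 at 4 h, 0.30 at 24 h (-0.11 with edgeR) and 0.01 at 3 d (-0.12 with edgeR) in the authors' deposited tables, and Dnajc18 had -0.82, -0.19 and 0.16, where edgeR put the last at 0.02 and did not call it. All of these changes were under 2-fold with DESeq2. With edgeR Dnajb9 (-1.54), Dnajb4 (-1.14), Dnajc5 (-1.18) and Dnajc18 (-1.76) were lower by more than 2-fold at 4 h, and Dnajc19 (-1.06) at 24 h. None of the differences between times was tested.

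By place in the cell the members gave no single direction. Of 10 members of the endoplasmic reticulum, 4 were higher and 3 lower at 4 h with DESeq2 (1 and 8 with edgeR), 6 and 3 at 24 h (4 and 5 with edgeR), and 5 and 4 at 3 d (3 and 5 with edgeR). Of 9 mitochondrial members, 6 were higher and 1 lower at 4 h with DESeq2 but 0 and 9 with edgeR, 5 and 2 at 24 h (4 and 4 with edgeR), and 5 and 2 at 3 d (5 and 3 with edgeR). Over all genes the shares at these times were 31.8%, 32.4% and 29.5% higher and 31.0%, 32.2% and 25.8% lower with DESeq2. With edgeR they were 13.5%, 16.2% and 15.5% higher and 50.1%, 41.8% and 27.7% lower. The mitochondrial medians were 0.20, 0.46 and 0.27 and those of the endoplasmic reticulum 0.06, 0.33 and 0.07 with DESeq2, beside -0.04, -0.05 and -0.02 over all genes tested. In all, 14 members were called at no time with DESeq2 in the authors' deposited tables, namely Hspa1l, Hspa12a, Hspa12b, Hspb1, Hspb2, Hspb9, Hspg2, Dnajb3, Dnajb7, Dnajb12, Dnajc6, Dnajc15, Dnajc22 and Dnajc30. Of these, edgeR called Hspa1l, Hspa12b, Dnajb7, Dnajb12, Dnajc15 and Dnajc30 lower at 4 h. It also called Hspa12b, Dnajb12, Dnajc15 and Dnajc30 lower at 24 h, and Dnajb12 and Dnajc30 lower at 3 d. The share of all genes called at no time was not counted. Among members, 4 were listed at 0 after MPLA at 4 h and 2 at 24 h, and none was listed at 0 in the controls.

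Members known to be induced by heat shock were counted apart. The list held 15 genes, of which 14 were in the tables. At 4 h 10 were higher and 1, Dnajb4, was lower with DESeq2, against 6 and 6 with edgeR, and the call of Dnajb4 was lost when all p-values were adjusted together (DESeq2 adjusted p = 0.0568). At 24 h 12 were higher and 0 lower with DESeq2, against 11 and 0 with edgeR. At 3 d 11 were higher and 1 lower with DESeq2, against 10 and 1 with edgeR. All genes gave 31.8%, 32.4% and 29.5% higher and 31.0%, 32.2% and 25.8% lower with DESeq2, and 13.5%, 16.2% and 15.5% higher and 50.1%, 41.8% and 27.7% lower with edgeR. The list's medians with DESeq2 were 0.99, 1.17 and 0.41, beside -0.04, -0.05 and -0.02 over all genes tested, and with edgeR 0.05, 0.76 and 0.28, beside -0.97, -0.46 and -0.15. At least 2-fold higher were 6, 10 and 1 of the list. In the plot of these genes Hspa1b and Hspa1a stand above the others at 4 h and 24 h, while Hspb1 and Dnaja4 carry the widest errors.

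**Figure D3:**
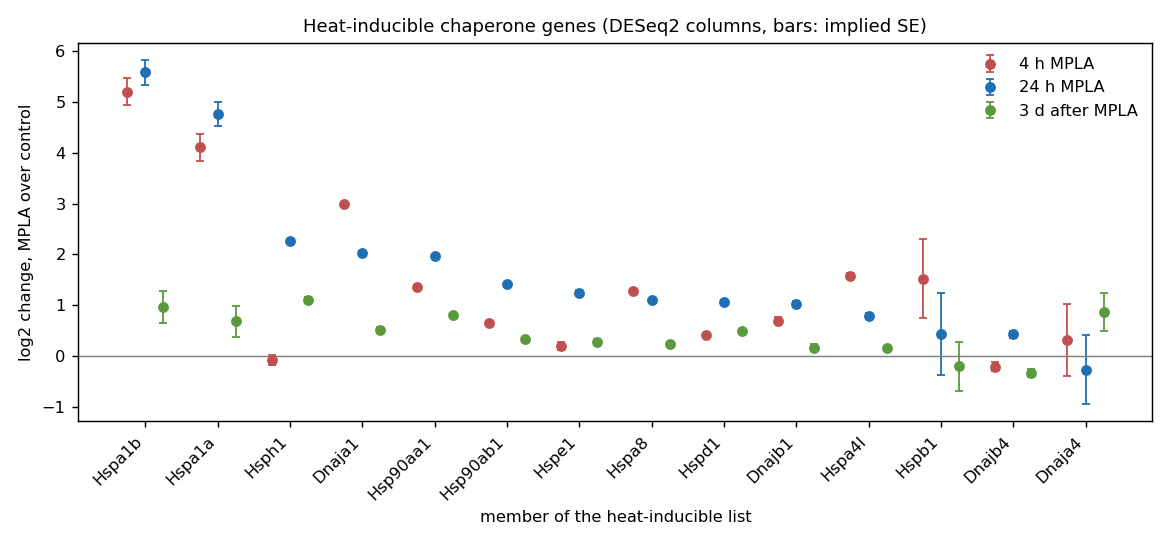
Log2 change, MPLA over control (DESeq2 columns, vertical axis), of the 14 heat-inducible members at 4 h (red), 24 h (blue) and 3 d (green), ordered by the change at 24 h. Bars show the SE implied by the deposited p-value and are absent where p is listed as 0. Hspa1b (5.20 and 5.58) and Hspa1a (4.10 and 4.76) stand highest at 4 h and 24 h, and Hsph1 lies at -0.08, 2.26 and 1.10.

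Promoters were searched for the heat shock element in the 250 bases before each RefSeq start site (GRCm38.p6). RefSeq promoters were given for 54 of the 68 members. The other 14 were not searched. They were Hsf1, Hsp90aa1, Hsp90ab1, Hspa8, Hspa9, Hspa13, Hspb2, Dnajc2, Dnajc5, Dnajc11, Dnajc12, Dnajc18, Dnajc22 and Dnajc30. The pair was searched as GAANNTTC or TTCNNGAA and the run of 3 units as GAANNTTCNNGAA or TTCNNGAANNTTC, where N is any base, on both strands, and each run of 3 also holds 2 overlapping pairs. A pair stood in a promoter of 13 of 54 members, 24.1%, and of 14.5% of all 27025 genes. By promoter the shares were 21.1% of 71 member promoters and 12.8% of all 32851. A run of 3 stood in 3 of 54 members, 5.56%, namely Dnajb6, Hspd1 and Hspe1, and in 0.514% of all genes. Hspd1 and Hspe1 count once each although they share the same stretch. The others with a pair were Hspa1a, Hspa1b, Hsph1, Dnaja1, Dnaja4, Dnajb4, Dnajc10, Dnajc27, Hspb1 and Hspb6. Dnaja1, Dnaja4, Dnajb4, Hspb6 and Hspd1 also had a RefSeq promoter without a pair. Of the 13 members with a pair, 6 were higher at 4 h, 9 at 24 h and 8 at 3 d with DESeq2. At these times 2, 1 and 3 of the 13 were lower. Of the 41 without, 17, 19 and 13 were higher and 8, 9 and 10 lower, with 40, 37 and 37 tested. Over all genes tested DESeq2 called 31.8%, 32.4% and 29.5% higher and 31.0%, 32.2% and 25.8% lower. The edgeR calls were not counted by motif, and whether calls differ with the motif was not tested. Over those with an adjusted p, the median changes were 0.31, 0.65 and 0.49 with a pair and 0.10, 0.32 and 0.01 without. A match is a run of letters and no evidence of binding, and a promoter without these letters may hold others. Hspb6, which was lower, and Dnaja4, which was called only at 3 d with DESeq2, both had a pair.

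**Figure D4:**
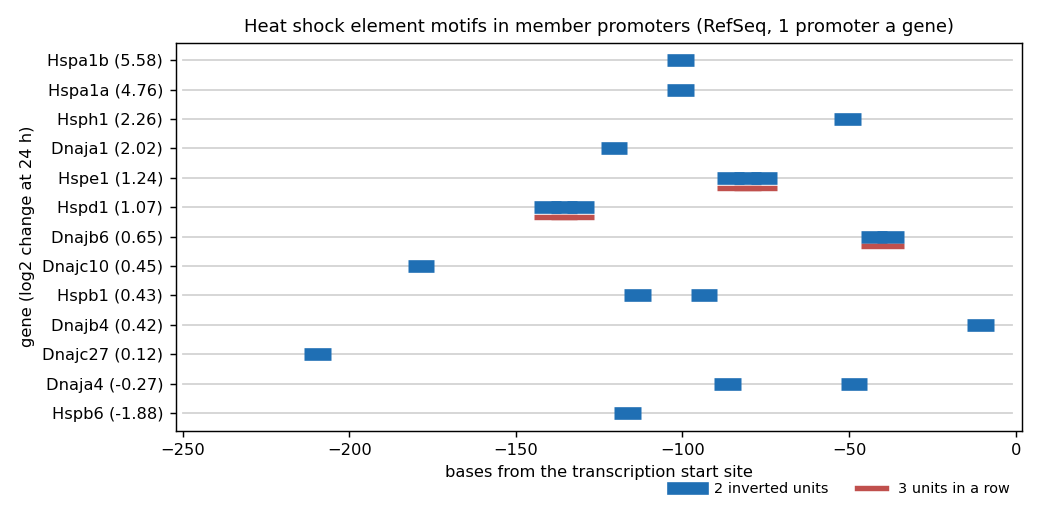
Positions of heat shock element matches in the 250 bases before the transcription start site (horizontal axis, bases) of the 13 members with a match, 1 RefSeq promoter with a match per gene, ordered by the DESeq2 log2 change at 24 h given beside each name. Blue bars are 2 inverted units and red lines runs of 3. The matches of Hspa1a and Hspa1b lie at the same place, -104 to -97, and Hspb6, with a change of -1.88, also has a match.

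Genes that work with these chaperones were counted from 4 lists of 56 genes, of which 55 were in the tables. With DESeq2 29 were higher and 10 lower at 4 h (8 and 42 with edgeR), 35 and 8 at 24 h (15 and 29 with edgeR), and 25 and 10 at 3 d (19 and 18 with edgeR). Over all genes 31.8%, 32.4% and 29.5% were higher and 31.0%, 32.2% and 25.8% lower with DESeq2, and 13.5%, 16.2% and 15.5% higher and 50.1%, 41.8% and 27.7% lower with edgeR. The medians of the partners with DESeq2 were 0.28, 0.25 and 0.11, beside -0.04, -0.05 and -0.02 over all genes tested. Among 20 Hsp90 co-chaperones 11, 14 and 13 were higher and 3, 0 and 2 lower at 4 h, 24 h and 3 d with DESeq2, while edgeR gave 2, 5 and 9 higher and 15, 8 and 5 lower, and their medians were 0.31, 0.34 and 0.17 with DESeq2. Stip1, which passes substrates from Hsp70 to Hsp90, was 3.69-fold, 2.36-fold and 1.34-fold higher in the authors' deposited tables (log2 1.88, 1.24 and 0.43). Chordc1 had 0.71 (-0.22 with edgeR), 1.09 and 0.47, and Ptges3, the co-chaperone p23, had 1.25, 0.94 and 0.08 in the authors' deposited tables, where the last was called by neither DESeq2 nor edgeR.

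The cytosolic chaperonin TRiC, which folds actin and tubulin, and its feeder prefoldin had 12 of 13 genes higher and 0 lower at 4 h with DESeq2 (4 and 9 with edgeR), 11 and 1 at 24 h (5 and 6 with edgeR) and 4 and 3 at 3 d (4 and 5 with edgeR), and medians of 0.63, 0.50 and 0.08 with DESeq2. Over all genes DESeq2 called 31.8%, 32.4% and 29.5% higher and 31.0%, 32.2% and 25.8% lower at these times. With edgeR those shares were 13.5%, 16.2% and 15.5% higher and 50.1%, 41.8% and 27.7% lower. Cct3, a TRiC subunit, was 3.53-fold higher at 4 h, 2.92-fold at 24 h and 1.43-fold at 3 d in the authors' deposited tables. Of 11 exchange factors, 3 were higher and 3 lower at 4 h, 6 and 4 at 24 h, and 5 and 3 at 3 d with DESeq2, against 1 and 10, 4 and 7, and 4 and 3 with edgeR. Their medians with DESeq2 were 0.02, 0.18 and 0.08, and at 4 h their shares of DESeq2 calls lay near those of all genes. Bag1 was higher by 1.13, 0.84 and 0.27, while Bag2 was lower with -1.67, -1.29 and -1.15 and Bag3, the heat-inducible member, had 0.11, 0.29 and 0.06 in the authors' deposited tables. DESeq2 called Bag3 at 24 h alone, and edgeR called it lower at 4 h (-0.83) and 24 h (-0.12) and did not call it at 3 d (-0.07). Of the 11 remaining partners 3 were higher and 4 lower at 4 h, 4 and 3 at 24 h, and 3 and 2 at 3 d with DESeq2, against 1 and 8, 1 and 8, and 2 and 5 with edgeR. The medians of these remaining partners were 0.01, -0.06 and 0.05 with DESeq2, and their shares of DESeq2 calls lay near those of all genes at each time. Hscb, the DnaJ protein of iron-sulfur cluster assembly, was lower with -2.88 (SE 0.18), -1.51 (SE 0.11) and -0.44 (SE 0.08) in the authors' deposited tables.

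All 10 macrophage markers present in the tables had reads in both groups at each time, Adgre1, Cd68 and Csf1r among them. Their levels moved too, with 6 higher and 2 lower at 4 h, 4 and 6 at 24 h, and 6 and 4 at 3 d with DESeq2, against 3 and 7, 3 and 7, and 5 and 4 with edgeR. Markers of other cells were partly present. The edgeR counts of markers cover every list gene in a table, also those with no DESeq2 adjusted p. Over all genes DESeq2 called 31.8%, 32.4% and 29.5% higher and 31.0%, 32.2% and 25.8% lower at 4 h, 24 h and 3 d. With edgeR those shares were 13.5%, 16.2% and 15.5% higher and 50.1%, 41.8% and 27.7% lower. Of the 7 fibroblast and endothelial markers, 4 were higher and 0 lower at 4 h, 3 and 0 at 24 h, and 1 and 0 at 3 d with DESeq2, against 4 and 1, 3 and 2, and 2 and 1 with edgeR. Among them Pecam1 was higher by 2.05, 2.96 and 1.87 in the authors' deposited tables. Dendritic cell markers gave 3 higher and 0 lower of 5 tested at 4 h, 1 and 1 of 3 at 24 h, and 0 and 1 of 3 at 3 d with DESeq2, against 1 and 0, 1 and 2, and 0 and 2 with edgeR. Of 7 neutrophil markers 6, 5 and 5 were in the tables, of which Camp was called higher at 24 h and 3 d and Prtn3, listed at 0 after MPLA, was called lower at 24 h with DESeq2, while edgeR called Camp at the same times and Prtn3 lower at each time. T and NK cell markers gave 0 higher and 1 lower at 4 h, 0 and 2 at 24 h, and 1 and 0 at 3 d with DESeq2, against 0 and 2, 0 and 2, and 1 and 1 with edgeR. Among B cell markers 0 were higher and 0 lower at 4 h, 0 and 1 at 24 h, and 1 and 0 at 3 d with DESeq2, against 0 and 1, 0 and 1, and 1 and 0 with edgeR. The erythroid and mast cell markers had 1 gene tested, lower at 24 h with DESeq2 and lower at 4 h and 24 h with edgeR. The tables hold no levels, so the summed level of a marker list in each group cannot be given, and the part of other cells in the chaperone changes was not tested.

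The plot of the tools shows most members near a line parallel to that of equal values. Among those off it at 4 h were Hspb7 (-3.36 with DESeq2, -5.26 with edgeR), Dnajb7 (-2.81 and -4.54) and Hspg2 (2.09 and 1.81). The edgeR values lay below the DESeq2 values by 0.94, 0.41 and 0.13 in the median over members at 4 h, 24 h and 3 d in the authors' deposited tables. Relative to the median gene of its own table, no sign of the 95 values of named members turned between the tools.

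**Figure D5:**
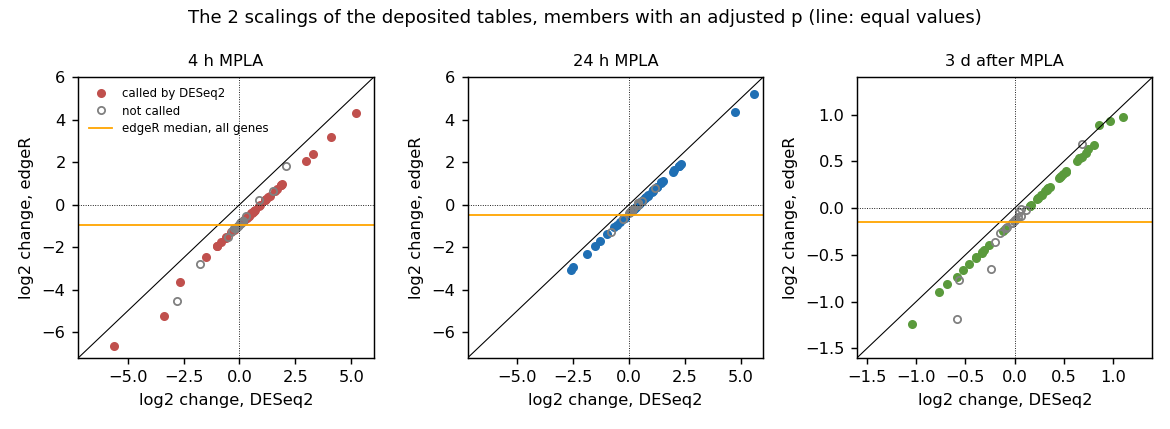
Log2 change, MPLA over control, with edgeR (vertical axis) against DESeq2 (horizontal axis) for members with an adjusted p, in 1 panel each for 4 h, 24 h and 3 d (the 3 d panel has a narrower range). Filled points were called with DESeq2, open points were not, the black line marks equal values and the orange line the edgeR median of all genes, -0.97, -0.46 and -0.15. Most members follow a line below that of equal values, farthest at 4 h, while Dnaja4 and Hspa1a lie slightly above equal values at 3 d.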

How the data were processed

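RNA-seq libraries were made from polyadenylated RNA with a stranded kit, per the labels' protocols. Per the submitters' processing notes, the authors used DESeq, DESeq2, edgeR, HTSeq, TopHat2 and bcl2fastq, with no versions given, and the mm10 build. Counting settings, use of strand and annotation release are not given in the sources used here. The authors' deposited tables hold, per the file headers, a log2 fold change, p-value and adjusted p-value per gene from DESeq2 and from edgeR, an unscaled log2 ratio, and a baySeq score. They hold no values or counts per library.

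As deposited, the log2 values are control over MPLA, by the order of the groups in the tables and by the values, and their sign was turned here. The authors' DESeq2 adjusted p-values were used as the main test, over all genes of a table, because the tables allow no other. Adjusted p-values listed as NA were kept as not tested. The SE of a change is the change divided by the normal quantile of its p-value, which assumes that the test divided the change by its SE. The sources used here do not state this. The tables list changes and p-values only, so precision is known only through these tests. Genes named are the 8 called members with the highest and the 8 with the lowest changes at each time that have reads in both groups and the same sign in the authors' edgeR columns, 14 named in any case, called members listed at 0 in a group, and members called with different signs at different times. Others are named as parts of a role or partner list or because a count of 5 or fewer rests on them, and were chosen after their values were seen. The members, the lists and the rules were chosen with earlier results of these data known. Gene positions, shared 50-base windows and overlapping exons came from GENCODE M21 transcripts of GRCm38, the assembly behind mm10, and promoters from RefSeq (GRCm38.p6). Start sites differ between these annotations. Tables were read with Python 3.11.15, pandas 2.3.3, numpy 2.4.6 and scipy 1.17.1, and the scripts were tested on simulated data. Alternatives were the authors' edgeR columns, Benjamini-Hochberg adjustment of all p-values, baySeq, all 3 tools together, a 2-fold minimum, genes with reads in both groups, Hspg2 left out, and centring on the median gene.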

Additional observations from a re-analysis of the deposited data

How the results depend on the processing

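With the edgeR columns 14 members were higher and 43 lower at 4 h, 26 were lower at 24 h and 22 were lower at 3 d. Calls by all 3 tools left 13 higher at 4 h and 2 lower at 3 d, and baySeq alone 2 lower at 3 d. The shares of all genes called by baySeq or by all 3 tools were not counted, so these counts cannot be set against a background. A 2-fold minimum left 14 higher and 6 lower at 4 h, 16 and 5 at 24 h, and 1 and 1 at 3 d. The other alternatives kept each count within 1.5 times its main value. With edgeR the sign turned at 4 h for Dnajb1 (-0.24), Hsp90ab1 (-0.29), Hspd1 (-0.53), Dnajc19 (-0.68), Dnajc3 (-0.72), Hspe1 (-0.74), Hsf1 (-0.76), Hspa9 (-0.76) and Dnajc10 (-0.88), at 24 h for Dnajc5 (-0.11), Dnajb9 (-0.20) and Hsf1 (-0.25), and at 3 d for Dnajc5 (-0.12). By construction the columns differ in scaling and in test, and for the calls these cannot be told apart. Centred on the median gene, 78 of the 95 edgeR values of named members lay within 1 SE of the DESeq2 value, those with no SE counted as outside it, and 0 changed sign. The unscaled ratio centred likewise gave 74 of 94, and 4 of the 85 calls of named members, those of Dnajb4 and Hspb7 at 4 h and of Dnaja4 and Dnajc3 at 3 d, were lost when all p-values were adjusted. No paired analysis was possible because the tables hold no values per library, and leaving out each replicate was not run for the same reason. Depth per gene is unknown, so the precision of a change is known only from its p-value.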
